A study of Homo sapiens with 12 samples.

Results

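Loss of LAD1 RNA was examined in HCC70 cells that had been starved of serum, before any growth factor was given. HCC70 is an established human breast cancer line of the basal-like, triple-negative kind. The comparison takes 4 of the 12 samples of the series: 2 libraries of cells stably expressing an shRNA against LAD1 (shLAD1 cells) and 2 libraries of cells stably expressing a scrambled shRNA (scramble cells). They were chosen by their labels alone, and all genes were compared. Both kinds of cells had been kept overnight without serum and were taken at 0 min, with no epidermal growth factor (EGF). The other 8 libraries are the same 2 kinds of cells after 40 or 240 min of EGF at 50 ng/ml. Poly-A RNA was sequenced from TruSeq v2 libraries. Only a single shRNA to LAD1 appears in the labels, and what follows from losing LAD1 cannot be told apart from whatever else that shRNA does. Whether each stable line was a pool or a clone is not given in the sources used here.

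LAD1 encodes ladinin-1, a protein first known from the anchoring filaments of the epithelial basement membrane and as a target of autoantibodies in a blistering skin disease. The title of the series names it as a partner of filamin, a protein that crosslinks actin filaments. Basal-like breast cancer cells express keratins of stratified epithelium, and part of the programme by which such epithelium matures can run in them. That programme includes cornified envelope proteins such as involucrin, the enzymes that crosslink or modify them, and kallikrein peptidases that act between cells. Epithelial cells also make chemokines and other cytokines, many of them from genes driven by the transcription factor NF-kB.

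The 4 starved libraries held 12428618 to 12647224 reads, and the 12 together 12428618 to 16721013. All 11 markers of basal-like breast epithelium were detected in each starved library and summed to 80207 to 120192 normalized counts (reads divided by a size factor per library). The hormone receptor genes ESR1 and PGR stood at no more than 29.0 and 1.03. Of 11 immune markers 4 were at 0 in all 4 starved libraries, CD3D, MS4A1 and LYZ among them, and of 9 fibroblast markers COL1A2, DCN and LUM were at 0. Other members of these lists were well detected. CD68 had 753 to 1419 normalized counts, CD14 549 to 1187 and the fibroblast marker COL1A1 257 to 810. The libraries of a group were not alike. Of 11235 genes with a mean of at least 50 normalized counts, 137 differed more than 2-fold between the scramble libraries and 421 between the shLAD1 libraries. Scramble library 1 stood above scramble library 2 in matrix and adhesion genes chosen here after their values were seen: COL12A1, a fibril-associated collagen, had 1359 against 87.4 normalized counts, TIMP3, a metalloproteinase inhibitor, 503 against 23.6, and BASP1 420 against 14.4. Between the shLAD1 libraries BASP1 had 1090.5 against 138 and CALCA, which encodes calcitonin, 270.1 against 36.6. The part of this library difference in the results below was not tested beyond leaving out each library. The labels number the libraries 1 and 2 in each group without saying that the numbers mark separate cultures, so a p-value measures the spread between these samples alone, and that spread may be technical.

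LAD1 itself was lower in both shLAD1 libraries. Its level was 5925 and 6406 normalized counts in the scramble libraries and 1091 and 865 in the shLAD1 libraries. With libraries of the same number set against each other, 18.4% and 13.5% of the RNA remained, and 15.9% of the mean. On the log2 scale LAD1 fell by 2.66 ± 0.13 (standard error, n = 2 libraries per group, adjusted p = 0.00012 by limma-trend). All values below are log2 fold changes of shLAD1 against scramble cells at 0 min, on the log2(normalized count + 1) scale, from that fit, which pools the spread of all 12 libraries. A gene is called when its Benjamini-Hochberg adjusted p over all genes tested was under 0.05.

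Among called genes with a mean of at least 50 normalized counts, the largest rises in starved shLAD1 cells included S100A7 and IVL, genes of maturing skin. COL7A1, a basement membrane collagen, and the mucin MUC4 were also among them. The falls included the cytokine genes IL33, CCL2 and CXCL8 and the survival gene BCL2. Of 13950 genes tested, 217 were called (1.56%), 100 higher (0.717%) and 117 lower (0.839%). Of these, 41 rose and 60 fell more than 2-fold. The median size of a called difference was 0.92, against 0.16 over all genes. The 2 groups did not overlap for any of the 217 called genes, and they did not overlap for 44.6% of all genes tested, with the shLAD1 libraries higher in 21.9% and lower in 22.7%. The number of calls depended on how the spread was estimated. When only the 4 starved libraries were fitted LAD1 alone was called (0.00745%), with 1631 genes at an unadjusted p under 0.05. Libraries of the same number deviated together, and with the number as a replicate block 1600 genes were called (11.5%; 791 higher, 5.67%, and 809 lower, 5.80%), all 217 among them. The block fitted to the 4 starved libraries alone called 309 of 13414 genes (2.30%), and 120 of the 217 were among them. Adjusted p-values and counts given below with the block come from all 12 libraries unless the starved libraries are named. Both fits over 12 libraries, with and without the block, count libraries of the same shRNA and number as separate although they deviated together. The p-values of both can therefore be too small. Without scramble library 2 the number fell to 4, without scramble library 1 to 15, and without shLAD1 library 1 or 2 to 25 and 39. LAD1 and ECM1 were the named genes that stayed called whichever of the 4 libraries was left out.

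**Figure D1:**
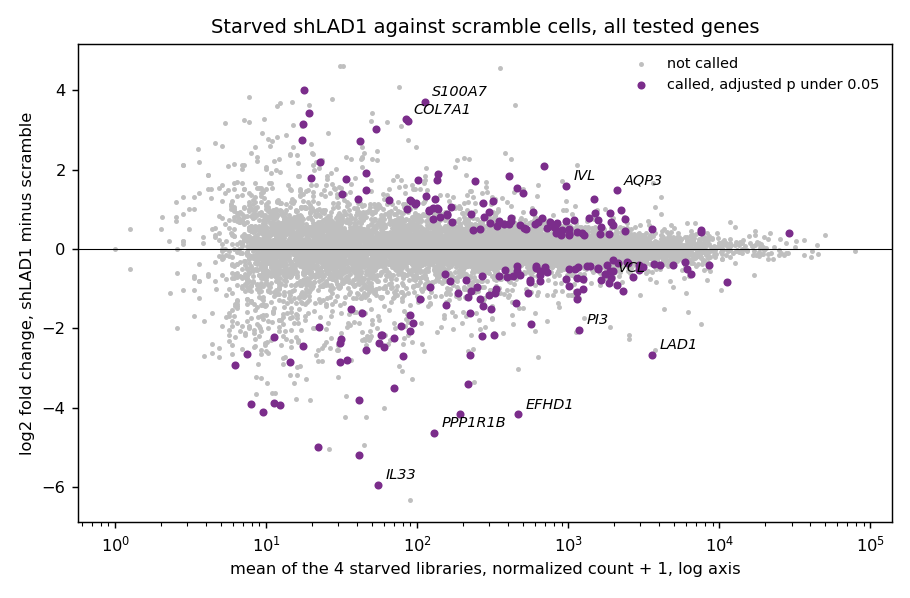
Log2 fold change of shLAD1 against scramble cells at 0 min for each of 13950 genes (vertical axis) by the mean normalized count + 1 over the 4 starved libraries (horizontal log axis), with the 217 called genes in purple. Called genes lie above and below 0 over the range of levels, and LAD1, at -2.66, is among the falls with a high level.

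Several of the largest rises were in genes of maturing stratified epithelium. S100A7, psoriasin, an antimicrobial S100 protein made by inflamed and maturing skin, had 15.5 and 13.4 normalized counts in the scramble libraries and 261 and 155 in the shLAD1 libraries. It rose by 3.71 ± 0.35 (13.1-fold, adjusted p = 0.00382). IVL, involucrin, a scaffold of the cornified envelope, rose by 1.59 ± 0.16 (3.02-fold, adjusted p = 0.00523), with 475 and 477 normalized counts in the scramble libraries and 1264 and 1636 in the shLAD1 libraries. In both genes each shLAD1 library lay well above each scramble library. PADI1, which converts arginine to citrulline in epidermal proteins, stood at 62.1 and 51.4 against 199 and 229 and rose by 1.90 ± 0.21. TMPRSS11E, a membrane-bound serine protease of squamous epithelium, stood at 13.5 and 8.23 against 99.6 and 87.5 and rose by 3.03 ± 0.30. AQP3, the channel that lets water and glycerol into keratinocytes, rose by 1.49 ± 0.18, from 1117 and 1067 to 2894 and 3254 normalized counts. PADI1 and AQP3 were higher in shLAD1 library 2, S100A7 and TMPRSS11E in shLAD1 library 1.

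The largest rises also held genes of the cell surface, the matrix and adhesion. Called genes of the same kinds, given here after their values were seen, fell: BGN, the matrix proteoglycan biglycan, by 1.93 ± 0.30, COL18A1, a basement membrane collagen, by 0.92 ± 0.18 and TNS3, a tensin, by 0.57 ± 0.09. COL7A1, the collagen of the anchoring fibrils that tie the basement membrane to the tissue below, rose by 3.26 ± 0.46 (9.60-fold, adjusted p = 0.017), with 22.8 and 9.25 normalized counts in the scramble libraries and 125 and 177 in the shLAD1 libraries. HSPG2, perlecan, a proteoglycan of basement membranes, rose by 1.25 ± 0.18, with 917 and 831 against 1808 and 2389.6. ECM1, a secreted matrix protein of skin, rose by 1.72 ± 0.12 (adjusted p = 0.00108), with 119 and 104 against 338 and 401. The spread within a group was small beside the difference between groups for ECM1, whereas the scramble libraries of COL7A1 differed from each other more than 2-fold. TNS4, a short tensin of focal adhesions, stood at 47.6 and 44.2 against 154 and 156 and rose by 1.73 ± 0.19. COL1A1, a chain of fibrillar collagen type I, stood at 286 and 257 against 645 and 810.1 and rose by 1.41 ± 0.17. Its partner chain COL1A2 was at 0 in all 4 libraries. The 9 fibroblast markers, COL1A1 among them, summed to 384 and 318 against 663 and 824 normalized counts, and 7 of the 9 stayed under 10 in every starved library. Of the membrane mucins MUC4 rose by 1.73 ± 0.31 (72.5 and 50.4 against 166 and 247) and MUC16 by 0.97 ± 0.18 (1549 and 1460.0 against 3138 and 2762). PSCA, a lipid-anchored surface protein, rose by 2.10 ± 0.24 (213 and 312 against 1246 and 981). The remaining genes among the 14 largest rises were ICA1, linked to secretory granules (3.23 ± 0.59; 18.6 and 11.3 against 212 and 98.7), MGLL, which breaks down monoacylglycerols (1.85 ± 0.24; 213 and 143 against 672 and 591), and ADIRF (1.53 ± 0.14; 233 and 234 against 736 and 622). In all of these the 2 groups did not overlap. ICA1 was not called by edgeR's quasi-likelihood test on the 12 libraries, nor were CXCL8, KRT13 and CCL2 below.

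**Figure D2:**
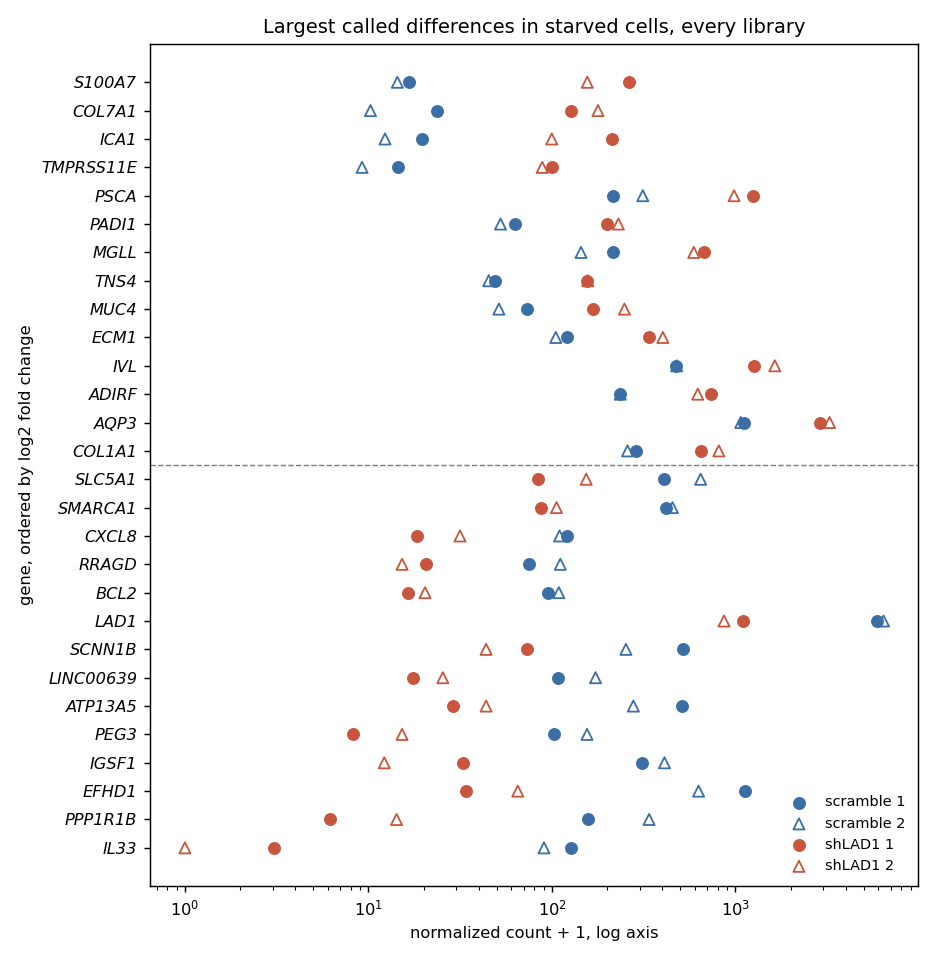
Normalized count + 1 (horizontal log axis) in each starved library for the called genes with the 14 largest rises and 14 largest falls and a mean of at least 50 normalized counts. Filled circles are libraries numbered 1 and open triangles those numbered 2. In each gene both shLAD1 libraries lie on one side of both scramble libraries, which the rule for choosing these genes required.

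IL33, an alarm cytokine kept in the nucleus of epithelial cells, had the largest fall among called genes with a mean of at least 50. It had 121 and 87 reads in the scramble libraries and 2 and 0 in the shLAD1 libraries, a ratio of 105 with an exact 95% interval of 28.7 to 872 that covers counting error only. The fitted change was -5.93 ± 0.66 (adjusted p = 0.00609), a value that depends on the 1 added to each count. PPP1R1B, which encodes the phosphatase inhibitor DARPP-32, fell by 4.63 ± 0.80 (adjusted p = 0.0335), with 156 and 337 normalized counts in the scramble libraries and 5.13 and 13.2 in the shLAD1 libraries. EFHD1, a calcium-binding protein of mitochondria, fell by 4.16 ± 0.56, with 1122 and 628 against 32.9 and 64.1. IGSF1, a membrane protein of the immunoglobulin superfamily, fell by 4.16 ± 0.80 (adjusted p = 0.0489), with 309.5 and 409 against 31.8 and 11.2, and was not called without a filter or with a pseudocount of 0.5. In these 4 genes each shLAD1 library lay far below each scramble library.

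Other large falls included genes of membrane transport, cell survival and gene control. SCNN1B, a subunit of the epithelial sodium channel, fell by 2.68 ± 0.44 (517 and 252 against 71.9 and 42.7). SLC5A1, which brings glucose into cells with sodium, fell by 2.18 ± 0.38 (408 and 645 against 83.2 and 153). ATP13A5, a cation-transporting ATPase, fell by 3.41 ± 0.51 (510.3 and 277 against 27.7 and 42.7). All 3 encode proteins that move solutes across membranes. BCL2, the inhibitor of apoptosis, fell by 2.48 ± 0.29 (adjusted p = 0.00835), with 94.2 and 108 normalized counts in the scramble libraries and 15.4 and 19.3 in the shLAD1 libraries. RRAGD, a GTPase that relays amino acid supply to the kinase mTOR, fell by 2.36 ± 0.39 (73.5 and 110.0 against 19.5 and 14.2). SMARCA1, a chromatin remodelling ATPase, fell by 2.18 ± 0.31 (419 and 452 against 86.3 and 105). The libraries within each group were closer to each other for SMARCA1 and BCL2 than for RRAGD. PEG3, an imprinted zinc finger gene, fell by 3.50 ± 0.44 (101 and 154 against 7.19 and 14.2), and the non-coding RNA LINC00639 fell by 2.70 ± 0.33 (107 and 172 against 16.4 and 24.4). Counting by strand is not given in the sources used here, so reads of genes that overlap cannot be told apart. In RefSeq (GRCh38.p14) this touches PEG3 with ZIM2 and PEG3-AS1, ATP13A5 with ATP13A5-AS1, COL7A1 with MIR711 and ADIRF with AGAP11. Reads of S100A7 may also be shared with its near copy S100A7A.

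Across 36 gene lists, 16 held at least 1 called gene. In these lists or 5 lists of cell type markers lay 24 called genes. The lists were chosen with earlier results of these data known, so their counts describe and do not test. Over all genes tested the median log2 fold change was 0.00, with 7024 genes above 0 and 6925 below. In the 20 lists without a call by limma-trend, 87 of 450 members tested had an unadjusted p under 0.05 (2197 of 13950 over all genes), edgeR called 0 and DESeq2 10 higher and 13 lower.

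Cornified envelope genes lay mostly above 0, with 2 calls in opposite directions. Of 40 listed, 24 passed the filter on low counts. IVL rose and PI3, the protease inhibitor elafin that is crosslinked into the envelope, fell by 2.04 ± 0.33 (adjusted p = 0.029), with 1579.6 and 2224 normalized counts in the scramble libraries and 398 and 520.0 in the shLAD1 libraries. The median of the 24 was 0.56, and 18 lay above 0. The small proline-rich genes had large values that were not called: SPRR1B stood at 59.0 and 11.3 against 475 and 862 (4.56 ± 0.92, adjusted p = 0.0574; 0.0444 with the replicate block). SPRR2A stood at 14.5 and 11.3 against 63.7 and 83.5 (2.42 ± 0.59, adjusted p = 0.0856; 0.028 with the block). In both genes the groups did not overlap, and the SPRR1B libraries of the scramble group differed from each other more than 2-fold. With the block 6 members were higher and 2 lower, against 5.67% and 5.80% of all genes. SPRR genes are close copies of each other, so their reads may be shared. Passing the filter through the shLAD1 libraries alone favours high values. The filter covers all 12 libraries, and SPRR2D, at 0 and 0 against 3.08 and 7.12, passed it through libraries taken after EGF.

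Kallikrein peptidases, which cut the junctions of maturing skin cells, had no call by limma-trend, while DESeq2 called 2 higher. Of 15 listed, 7 passed the filter, with a median of 1.51, the highest of the 36 lists. In 5 the shLAD1 libraries lay above both scramble libraries, against 21.9% of all genes. KLK9 passed through the shLAD1 libraries among the starved ones, so these values describe and support no direction. KLK5, which starts the kallikrein cascade, had 2972 and 942 normalized counts in the scramble libraries and 5170.0 and 5392 in the shLAD1 libraries (1.66 ± 0.76, adjusted p = 0.346). KLK7, which degrades desmosome proteins of the outer layer, had 172 and 77.1 against 531 and 733 (2.43 ± 0.55, adjusted p = 0.078; 0.000191 by DESeq2). Scramble library 1 lay above scramble library 2 in both genes. With the block KLK9 was the 1 call (adjusted p = 0.0137), at 0 and 2.06 against 16.4 and 24.4, a gene that the filter favoured for its high values.

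Keratins and other structural genes of the epithelium stayed closer to 0. Of 22 keratins tested KRT13, a keratin of non-cornifying stratified epithelium, rose by 2.19 ± 0.43 (adjusted p = 0.0455) at low counts of 4.14 and 11.3 against 29.8 and 41.7. KRT6A stood at 457 and 344 against 1178 and 2554 (2.13 ± 0.61, adjusted p = 0.145). Its near copy KRT6B stood at 3952 and 4815 against 2253 and 2942 (-0.76 ± 0.25, adjusted p = 0.179; 0.00229 with the block), so these 2 lay on opposite sides of 0. The basal keratin KRT5 was at 0.35 ± 0.21 (adjusted p = 0.477; 0.00614 with the block, 0.0818 with the block on the starved libraries alone). KRT14 was at -0.23 ± 0.74 and KRT17 at 0.38 ± 0.50. Of 13 S100 genes S100A7 was the 1 call, and 10 lay above 0. Of 16 hemidesmosome and anchoring genes COL7A1 and HSPG2 rose, 14 lay above 0 and the median was 0.36. LAMB3, a chain of laminin-332, stood at 4182 and 3911 against 5400.0 and 5532 (0.43 ± 0.11, adjusted p = 0.0856; 0.0225 with the block). None of 12 desmosome genes and none of 18 cadherin and tight junction genes was called, with medians of 0.08 and 0.08. Desmoplakin (DSP, 0.02 ± 0.16) and E-cadherin (CDH1, 0.05 ± 0.08) had groups that overlapped. Among basal and luminal cell genes PROM1, which encodes the surface protein CD133 of breast luminal progenitors, fell by 1.07 ± 0.11 (adjusted p = 0.00482), with 2833 and 3427 normalized counts in the scramble libraries and 1495 and 1469.5 in the shLAD1 libraries. KIT, a receptor of the same cells, stood at 425 and 593 against 176 and 67.2 (-2.20 ± 0.63, adjusted p = 0.147).

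The list of NF-kB targets and cytokines, which also holds other genes such as ICAM1, had the lowest median of the 36 lists, -0.67 over 25 genes. CXCL8, the neutrophil chemokine interleukin 8, fell by 2.25 ± 0.40 (adjusted p = 0.0345), with 119 and 109 normalized counts in the scramble libraries and 17.5 and 30.5 in the shLAD1 libraries. CCL2, a monocyte chemokine, had 68 and 13 reads in the scramble libraries and 0 and 0 in the shLAD1 libraries, which makes it at least 27.2-fold lower against a floor of 3 reads over the group. It was called at the threshold (adjusted p = 0.0494), and was not called with a minimum of 50 normalized counts or a pseudocount of 5. No member was called higher, 18 lay below 0, and in 14 of these the groups did not overlap, against 22.7% of all genes. ICAM1, an adhesion receptor for leukocytes, stood at 288 and 223 against 89.3 and 77.3 (-1.60 ± 0.33, adjusted p = 0.0574; 0.0109 with the block). The cytokine LIF stood at 135 and 149 against 47.2 and 66.2 (-1.33 ± 0.28, adjusted p = 0.0613; 0.00977 with the block). All 3 of ICAM1, LIF and the chemokine CXCL1 were lower in both shLAD1 libraries. CXCL1 stood at 132 and 131 against 69.8 and 78.4 (-0.82 ± 0.24, adjusted p = 0.147; 0.0207 with the block). With the block 11 members were lower and none higher, against 5.80% and 5.67% of all genes. The subunits themselves lay near 0, with RELA at -0.03 ± 0.08 and NFKB1 at 0.02 ± 0.14, and their groups overlapped, whereas RELB stood at -0.80 ± 0.26 (adjusted p = 0.183; 0.0144 with the block). After 40 and 240 min of EGF the list median was -0.15 and -0.19, and none of the 25 genes was called at either time. In bulk RNA, fewer cells that express a gene and less of its RNA per cell cannot be told apart.

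Of the HLA genes 1 class II gene was called. HLA-DRA, the shared alpha chain of HLA-DR, fell by 2.18 ± 0.24 (adjusted p = 0.00609), with 97.3 and 92.5 normalized counts in the scramble libraries and 23.6 and 17.3 in the shLAD1 libraries. HLA-DRB1 stood at 102 and 51.4 against 13.3 and 16.3 (-2.23 ± 0.49, adjusted p = 0.0615; 0.00369 with the block). HLA-DQB1 stood at 32.1 and 12.3 against 1.03 and 4.07 (-2.71 ± 0.76, adjusted p = 0.127; 0.03 with the block). HLA-DRA was the 1 call among 25 antigen presentation genes. With the block 5 were lower, against 5.80% of all genes, and 1 with the block on the 4 starved libraries alone. CIITA, the activator of class II genes, was at -0.07 ± 0.43, and the class II chaperone CD74 at -0.54 ± 0.33 (adjusted p = 0.482). The class I genes HLA-B and HLA-C were at -0.13 and 0.06, with groups that overlapped. HLA genes vary between copies and share sequence, which can move reads between them. The immune marker PTPRC, on all leukocytes, had no more than 1.04 normalized counts in any starved library. Of 43 interferon-stimulated genes none was called and the median was -0.04.

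The list of actin, filamin and tropomyosin genes, the cytoskeleton that the series title names, also holds vinculin. Vinculin was the 1 call among the 25 members tested. VCL, vinculin, which links integrins to actin at focal adhesions, fell by 0.73 ± 0.10 (adjusted p = 0.017), with 2519.6 and 2253 normalized counts in the scramble libraries and 1381 and 1495 in the shLAD1 libraries. FHL2, a LIM protein and a target of the factor SRF, fell by 0.70 ± 0.13 (492 and 476 against 296 and 299). Within each group the libraries of both genes lay close together. VCL and FHL2 were the 2 calls among 17 targets of SRF and its cofactor MRTF, whose median was 0.01. Filamin A (FLNA) stood at 26581 and 19179.7 normalized counts in the scramble libraries and 24855 and 21901 in the shLAD1 libraries, with overlapping groups (0.05 ± 0.19, adjusted p = 0.935). The actin gene ACTB was at -0.05 ± 0.10 and ACTG1 at -0.11 ± 0.18, neither called. FLNC did not pass the filter on low counts. Of 43 regulators of actin assembly none was called, and the median was 0.06. RefSeq places AP3M1 over part of VCL and C2orf49 over part of FHL2. Of 16 integrin subunits none was called. ITGB1, the partner of most alpha subunits, stood at 10845 and 7239 against 16769 and 12048 (0.68 ± 0.30, adjusted p = 0.325; 8.16e-05 with the block, 0.0158 with the block on the starved libraries alone).

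The EGF receptor and the genes it drives were compared before EGF was given. EGFR stood at 2792 and 3117 normalized counts in the scramble libraries and 2209.7 and 3222 in the shLAD1 libraries (-0.14 ± 0.20, adjusted p = 0.774), and ERBB2 at 0.07 ± 0.07, so neither was called. Among 23 feedback inhibitors of EGFR and ERK signalling CBLB, a ubiquitin ligase that sends activated receptors to degradation, rose by 0.68 ± 0.13 (adjusted p = 0.0392), with 482 and 473 against 849 and 695. Of 26 immediate early genes JUND, a subunit of the AP-1 factor, rose by 0.76 ± 0.12 (1729.7 and 1735 against 3386 and 2552) and KLF4, a factor of epithelial differentiation, by 0.51 ± 0.10 (408 and 448 against 628 and 594). FOS (-0.14), JUN (0.18) and EGR1 (0.32) had overlapping groups.

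Metabolic and remaining lists held few calls. Of 25 cholesterol synthesis genes none was called, and 24 lay below 0, with a median of -0.33. With the replicate block 14 were lower, against 5.80% of all genes, and 3 with the block on the starved libraries alone. MVD, an enzyme of the mevalonate steps, stood at 6076 and 8465 against 3918 and 4743 (-0.73 ± 0.25, adjusted p = 0.197; 0.000256 with the block). Its groups did not overlap, and scramble library 2 was the highest. Of 23 genes of the ATF4 response to amino acid shortage PSAT1, an enzyme of serine synthesis, fell by 0.71 ± 0.07 (adjusted p = 0.00541), with 3319.7 and 3302 normalized counts in the scramble libraries and 1913 and 2131 in the shLAD1 libraries. SLC7A5, an importer of large neutral amino acids, fell by 0.51 ± 0.09 (7104 and 7294 against 5474 and 4657). In PSAT1 the libraries of a group differed by far less than the groups did. Of 19 genes of retinoid metabolism DHRS9, a retinol dehydrogenase, rose by 1.48 ± 0.22 (21.7 and 24.7 against 69.8 and 63.1). Of 29 genes of matrix proteolysis the lysosomal cathepsin CTSL rose by 0.66 ± 0.13 (643 and 659 against 949 and 1115). Among mesenchymal markers PDGFRA, a receptor for platelet-derived growth factor, fell by 2.54 ± 0.45 (96.3 and 58.6 against 14.4 and 10.2) while COL1A1 rose. VIM, vimentin, stood at 694 and 356 against 233 and 222 (-1.12 ± 0.38, adjusted p = 0.199). CD68, which is used as a macrophage marker and also encodes a lysosomal protein, rose by 0.73 ± 0.14 (879.9 and 753 against 1294 and 1419). The 11 immune markers together summed to 1848 and 1954 against 1901 and 2649, with groups that overlapped. Most of that sum was CD14 and CD68. CSF1R, another macrophage marker, stood at 19.7 and 13.4 against 56.5 and 61.1 (1.79 ± 0.45, adjusted p = 0.0879; 0.0159 with the block), and the part of other cells in these values was not tested.

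No cell cycle list held a call. Of 28 mitosis genes none was called, with a median of -0.11, and 24 lay below 0. With the block 3 were lower, against 5.80% of all genes, and 0 with the block on the 4 starved libraries alone. The proliferation marker MKI67 stood at 7679.8 and 7632 against 7354 and 7489 (-0.04 ± 0.07, adjusted p = 0.809). Of 31 DNA replication genes the median was -0.00, and of 24 ribosome biogenesis genes it was -0.11. The lists without a call that are not described above, among them Notch (19 genes), Wnt (22), TGF-beta and BMP (28), p53 targets (23), the unfolded protein response (18) and hypoxia and glycolysis (29), had medians from -0.12 to 0.20. The p53 target CDKN1A, which encodes the cell cycle inhibitor p21, stood at 1088 and 917 against 1385 and 1904 (0.70 ± 0.25, adjusted p = 0.228). Of 13 genes of RNA interference, the machinery that an shRNA uses, none was called. DROSHA was at -0.25 ± 0.06 (adjusted p = 0.0676; 0.0118 with the block, 0.164 with the block on the starved libraries alone).

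**Figure D3:**
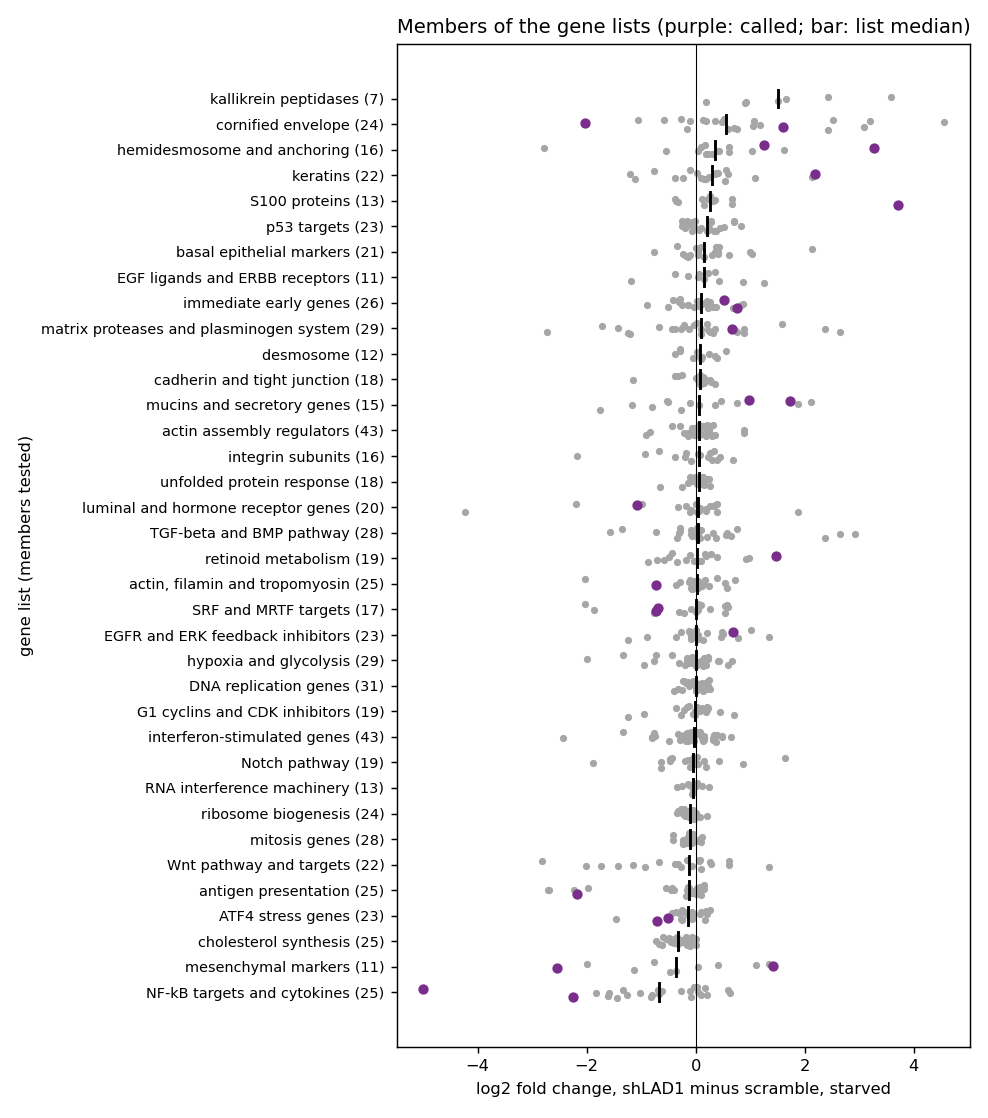
Log2 fold change of shLAD1 against scramble cells at 0 min for each tested member of 36 gene lists, ordered by the list median (bar), with called genes in purple and the number of members tested in brackets. Kallikrein peptidases have the highest median, 1.51, and NF-kB targets and cytokines the lowest, -0.67, and most members of both are not called.

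Libraries of the same number gave 2 separate estimates of each difference that share no library. Over all genes tested, which are not independent of each other, they correlated at r = 0.52, and at r = 0.62 over genes with a mean of at least 50. These are descriptions, since libraries of a number deviated together and the same genes carry the noise of low counts. Among the 217 called genes 110 had the larger difference in the libraries numbered 1. Of the 330 genes with a mean of at least 50 that differed more than 2-fold between group means, 69 were called. Among those not called was the matrix metalloproteinase MMP7, chosen after its values were seen, at 778 and 1357 against 75.0 and 314 (-2.73 ± 0.97, adjusted p = 0.222; 0.02 with the block).

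**Figure D4:**
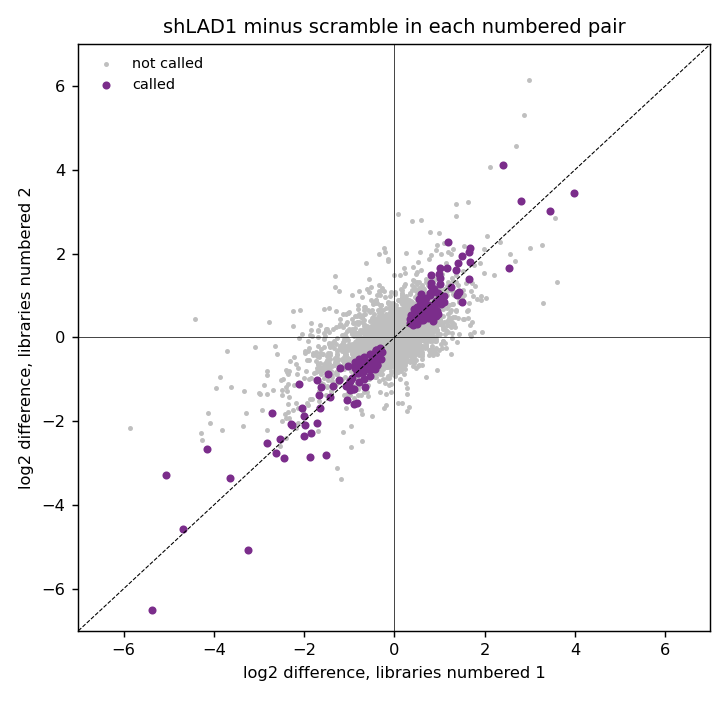
Log2 difference of shLAD1 minus scramble in the libraries numbered 1 (horizontal axis) and numbered 2 (vertical axis). Points are the 11235 genes with a mean of at least 50 normalized counts over the starved libraries. The 185 called genes among them are in purple, and the line of equality is dashed. Called genes lie near the line in the upper right and lower left, and many genes that were not called lie far from it.

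Both kinds of cells were also sampled after EGF, and the genes called at 0 min were followed there. All 217 genes had the same sign at 40 and at 240 min. At 40 min 230 genes were called (1.65%), 163 of them among the 217, which is 75.1% of the 217 and 70.9% of the 230. At 240 min 133 were called (0.953%), 101 of them among the 217, or 46.5% and 75.9%. In all 3 comparisons 90 genes were called, and 43 at 0 min alone. Since deviations were shared between libraries of the same cells at different times, the later libraries are not independent support. S100A7 stood at 3.58 and 3.58 at the later times, IL33 at -6.12 and -5.67, and LAD1 at -2.52 and -2.00. The 28 largest called differences among genes with a mean of at least 50 normalized counts were also compared between times. Of these 28 genes CXCL8 shifted most, from -2.25 at 0 min to -0.42 (adjusted p = 0.659) and -0.51 (adjusted p = 0.583), called at neither. Tests of the change in the knockdown effect between times called 0 genes by limma-trend, with 99 genes (40 against 0 min) and 133 (240 against 0 min) at an unadjusted p under 0.05. DESeq2 called 0, with 30 and 45 unadjusted, and edgeR 0, with 104 and 135. No gene is therefore shown to differ in starved cells only.

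**Figure D5:**
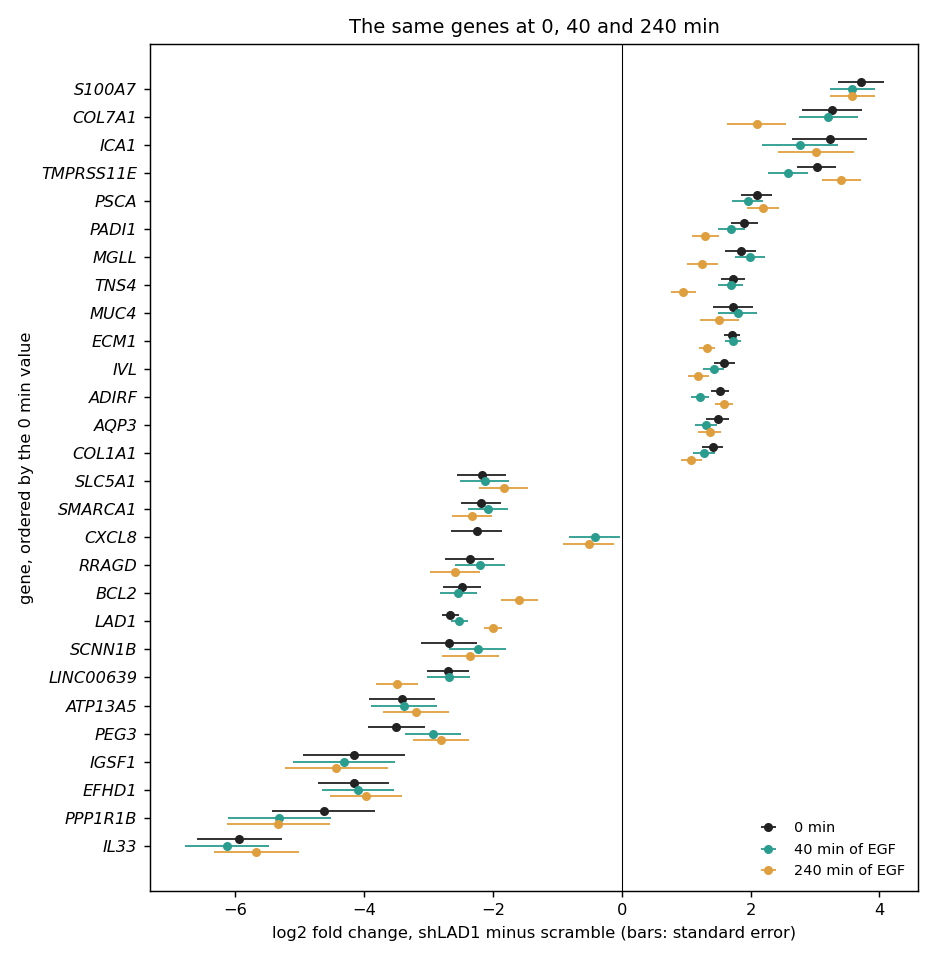
Log2 fold change of shLAD1 against scramble cells at 0, 40 and 240 min (points, with bars of 1 standard error). Shown are the 28 largest called differences of starved cells among genes with a mean of at least 50 normalized counts. The 3 points of a gene lie close together for most genes, and CXCL8 moves from -2.25 at 0 min to -0.42 and -0.51.

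The positions of called genes were compared. The order of genes was taken from RefSeq, in which 98.2% of those tested were found. No window of 10 neighbouring genes held 5 or more called in the same direction. The most in a window were 3 higher and 2 lower. A region of zinc finger genes on chromosome 19, chosen after its values were seen, came closest. From ZNF304 to ZNF256, 28 neighbours were tested, 26 lay above 0 with a median of 0.89, and ZNF304, ZNF549, ZNF211, ZNF551 and ZNF256 rose. With the block 16 were higher and none lower, against 5.67% and 5.80% of all genes, in a region chosen for its high values. ZNF256 stood at 38.3 and 37.0 against 92.4 and 86.5 (1.23 ± 0.17, adjusted p = 0.017) and ZNF304 at 74.5 and 79.2 against 201 and 168 (1.25 ± 0.21, adjusted p = 0.0269). In these KRAB-type zinc finger genes reads can be shared between copies. The 250 bases before the start of the genes at the ends of the region are shown from RefSeq (GRCh38.p14), on the strand of the gene, because most of the neighbours lay above 0. Capitals mark the dinucleotide CG, of which ZNF304 (chr19:57351021-57351270, plus strand) has 17 and ZNF256 (chr19:57947707-57947956, minus strand) has 22, against a median of 11 in 27305 promoters of that length, 93.6% of which hold at least 1. The median was 18 both in called genes that rose and in those that fell.
ZNF304: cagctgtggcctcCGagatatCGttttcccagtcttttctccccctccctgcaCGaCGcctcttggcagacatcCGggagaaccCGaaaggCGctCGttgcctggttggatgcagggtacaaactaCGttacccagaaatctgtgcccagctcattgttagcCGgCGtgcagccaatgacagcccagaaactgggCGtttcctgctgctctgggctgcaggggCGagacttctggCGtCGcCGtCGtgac
ZNF256: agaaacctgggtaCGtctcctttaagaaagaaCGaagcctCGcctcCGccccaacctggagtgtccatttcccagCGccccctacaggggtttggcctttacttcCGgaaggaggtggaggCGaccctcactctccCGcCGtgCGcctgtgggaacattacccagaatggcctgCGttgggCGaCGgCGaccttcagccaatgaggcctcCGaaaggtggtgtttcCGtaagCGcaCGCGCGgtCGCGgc

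The 250 bases before the start of IVL and CXCL8 are shown because these genes, a rise of the cornified list and a fall of the cytokine list, both hold a match to the AP-1 motif. The letters searched were TGANTCA, the AP-1 motif, and GGNNTTTCC, an NF-kB motif, on both strands. IVL (chr1:152908296-152908545, plus strand) holds TGAGTCA from 123 to 117 bases before the start. CXCL8 (chr4:73740319-73740568, plus strand) holds TGACTCA from 137 to 131 and GGAATTTCC from 91 to 83 bases before the start. Capitals mark these matches.
IVL: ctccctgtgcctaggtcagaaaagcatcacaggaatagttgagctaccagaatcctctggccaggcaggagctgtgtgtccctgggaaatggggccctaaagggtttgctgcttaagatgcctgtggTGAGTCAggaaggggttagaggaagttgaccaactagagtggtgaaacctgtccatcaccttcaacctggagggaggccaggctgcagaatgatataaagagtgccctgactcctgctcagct
CXCL8: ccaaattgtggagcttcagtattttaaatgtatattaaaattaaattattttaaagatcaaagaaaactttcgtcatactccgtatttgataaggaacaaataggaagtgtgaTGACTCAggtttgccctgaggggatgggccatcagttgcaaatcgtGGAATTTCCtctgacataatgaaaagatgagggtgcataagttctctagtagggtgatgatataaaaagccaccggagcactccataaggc

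In all 27305 promoters of that length TGANTCA was found in 6.60% and GGNNTTTCC in 5.48%. Among called genes with a promoter in the table, TGANTCA was in 4 of 78 that rose (5.13%) and 4 of 83 that fell (4.82%). GGNNTTTCC was in 7 of 78 (8.97%) and 5 of 83 (6.02%). These shares are descriptions of letters in a short window and say nothing of whether a factor binds.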

How the data were processed

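HCC70 cells with an shRNA against LAD1 or a scrambled shRNA were sequenced before and 40 and 240 min after EGF, which makes 6 groups of 2 libraries. The submitters' processing notes name STAR, DESeq2 and the build hg19. Tool versions, read counter, annotation and strandedness were not given in the sources used here. In the table of 26365 gene symbols that the authors deposited, the signal columns are read counts divided by a size factor per library, as tested on the values, of which 100% gave whole reads within 0.001. Recovered totals were 12428618 to 16721013 reads per library.

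From these values limma-trend (limma 3.58.1, R 4.3.3, robust) was fitted to log2(normalized count + 1), with a mean per group over all 12 libraries and 13950 genes that reached 10 normalized counts in 2 or more libraries. A fold change on this scale understates changes of low genes. edgeR 4.0.16 and DESeq2 1.42.0 were run on the recovered reads as alternatives, beside other samples, blocks, scalings, filters and pseudocounts and each of the 4 starved libraries left out. The code was tested on simulated data. The comparison, the gene lists and the genes named were chosen with earlier results of these data known. The named genes are the called genes with the 14 largest rises and 14 largest falls, if their mean is 50 normalized counts or more and the groups do not overlap, up to 4 called members of each list, the 2 highest of lists without a call, and 16 genes whatever their p, FLNA and EGFR among them. Some genes are not reported here. Other genes given values were chosen after these were seen.

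Replicates differed by more than counting noise, with a chi-square per degree of freedom of 8.586 to 21.34 within groups. Deviations from the group means correlated between libraries of the same number. The correlation was 0.645 to 0.734 over 6 group pairs of a common shRNA. It was 0.247 to 0.307 over 9 group pairs of different shRNAs (0.289 for the starved groups). On these values the numbers pair the samples. The sample descriptions carry the same pairing, as all libraries of a number share a first letter, o or s. What these letters stand for is not given in the sources used here. Libraries with the same shRNA and number are thus not independent, and the fit over 12 libraries treats them as separate.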

Additional observations from a re-analysis of the deposited data

How the results depend on the processing

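The number of calls depended on the estimate of spread more than on scaling, filter or pseudocount. At 0 min the count of 217 became 1 with only the 4 starved libraries fitted, by limma or by edgeR with TMM factors, 510 with DESeq2 and 1600 with the replicate block, and the block with only the 4 starved libraries gave 309. The other scalings, filters and pseudocounts and edgeR on the 12 libraries gave 201 to 230. All of the 217 genes tested under an alternative kept their sign there. Leaving out 1 starved library left 4 to 39 calls, with the lone sample assumed to vary like the other groups. For genes changed at 40 min the block gave 1578, DESeq2 538 and leaving out a library 105 to 172, and for genes changed at 240 min 1462, 380 and 70 to 104. The block made 10 further named genes called, ITGB1 and KRT5 among them, and ended no call of a named gene. With only the 4 starved libraries the block made 1 further named gene called and ended the call of 7. LAD1 was called under every alternative. The cause of these differences was not tested.

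Signs turned only among named genes that were not called. ESR1, at -0.00, became 0.0023 under upper-quartile scaling and 0.0017 under total-count scaling. With 1 library left out the ranges were ACTB -0.20 to 0.088, BAX -0.00087 to 0.18, BST2 -0.17 to 0.44, CDH1 -0.061 to 0.15, CDH3 -0.090 to 0.10, CDKN2B -0.34 to 0.58 and CFL1 -0.065 to 0.034. They were DSP -0.13 to 0.16, EGFR -0.42 to 0.13, ESAM -0.66 to 0.19, ESR1 -0.21 to 0.20, FLNA -0.19 to 0.28, FOXA1 -0.61 to 0.25, KRT14 -0.99 to 0.53, KRT16 -0.11 to 0.42 and KRT17 -0.043 to 0.80. For MCM7 the range was -0.026 to 0.041, for NOTCH3 -0.30 to 0.20, SAMD9 -0.19 to 0.92, TGFBI -0.36 to 0.42 and TNRC6A -0.29 to 0.017.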

Other observations

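Further called genes, chosen after their values were seen and outside the lists, are given as values. Among the rises were SEMA5A, a semaphorin, by 2.73 ± 0.49 (9.32 and 10.3 against 56.5 and 87.5 normalized counts, scramble against shLAD1), NRP2, a receptor for semaphorins and VEGF-C, by 1.20 ± 0.19 (188 and 192 against 491 and 391), UNC5B, a netrin receptor, by 1.17 ± 0.18 (154 and 178 against 436 and 319.6), and VEGFC by 0.89 ± 0.14 (117 and 101 against 221 and 185). In each the groups did not overlap. PPARG, a nuclear receptor that binds fatty acids, rose by 0.69 ± 0.12, IL6R, the interleukin 6 receptor, by 1.27 ± 0.25, and ALOX5, which makes leukotrienes, by 1.33 ± 0.23. Lysosomal genes were called in both directions. Those that rose included CTSA by 0.50 ± 0.06, SCARB2 by 0.39 ± 0.08 and MANBA by 0.54 ± 0.10. FTL, the ferritin light chain, rose by 0.40 ± 0.08 (24994 and 24458 against 34237 and 31135). The lysosomal enzyme gene GALC fell by 2.86 ± 0.57 (34.2 and 14.4 against 1.03 and 4.07) and stood at -0.75 at 40 min and -1.42 at 240 min. The lysosomal membrane genes LAPTM4A and LAPTM4B fell by 0.41 ± 0.07 and 0.64 ± 0.08, and ATP6V0A4, a proton pump subunit, by 2.28 ± 0.34.

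Among the falls were the glutathione transferase genes GSTM3, by 1.37 ± 0.23 (758 and 537 against 229 and 265), and GSTM4, by 1.52 ± 0.27 (535 and 379 against 168 and 145), whose family shares sequence. PDE9A, which breaks down cyclic GMP, had 104 and 48 reads in the scramble libraries and 0 and 3 in the shLAD1 libraries, a ratio of 51.1 with an exact 95% interval of 17.2 to 250.7 from counting error. MTOR, the kinase that RRAGD feeds, fell by 0.36 ± 0.07 (2782 and 2780.2 against 2089.6 and 2256), and SESN3, an inhibitor of the same pathway, by 1.40 ± 0.25 (239 and 207 against 77.0 and 90.6). AZGP1, a secreted zinc-binding glycoprotein, fell by 0.83 ± 0.15 (14238 and 14279 against 8863 and 7234), and VTCN1, an inhibitory ligand of T cells, by 0.86 ± 0.14 (2439.8 and 2370.0 against 1190.1 and 1472). IQGAP2, an actin-binding scaffold, fell by 3.80 ± 0.63 (108 and 43.2 against 7.19 and 2.04).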
